A study of Mus musculus with 2 samples.

Results

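The mitochondrial ribosomal proteins are the nuclear-encoded proteins of the ribosome that works inside mitochondria. Their genes were taken as all rows whose symbol is Mrpl or Mrps followed by a number and at most 1 letter, which gave 77 of the 24421 genes in the table. All 77 are annotated as protein coding, and they lie on 17 chromosomes. They were read in 2 liver RNA-seq libraries from male C57BL/6 mice that were fed a high-fat diet for 12 weeks from the age of 6 weeks. 1 library is labelled RORα liver-specific KO (LKO), with the genotype RORα f/f:Alb-Cre, in which Cre is driven by the albumin promoter, active in hepatocytes. The other, the control, has the genotype RORα f/f without Cre, so both carry the floxed Rora alleles and both had the same diet. RORα is a nuclear receptor, and the series title names genes altered by it as non-alcoholic steatohepatitis progresses. No label says how many mice a library represents.

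Mitochondria keep a small genome of their own, and its protein products are core subunits of the respiratory chain and of ATP synthase. The mitochondrial ribosome translates them. Its ribosomal RNAs come from mitochondrial DNA, while each of its proteins is encoded in the nucleus, made on cytosolic ribosomes and imported. The small subunit (Mrps genes) reads the mRNA, and the large subunit (Mrpl genes) joins the amino acids and feeds the chain through a tunnel to the inner membrane. Liver is rich in mitochondria, and most of its cell mass is hepatocytes. Transcripts of the mitochondrial genome, the ones this ribosome reads, were not analysed here.

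Total counts were 131843686 in the library labelled LKO and 128201591 in the control library. Levels are given as CPM, counts per 1000000 of a library's total after TMM scaling (trimmed mean of M-values), whose factors were 1.16 for LKO and 0.865 for control. Each genotype has 1 library, so differences carry no replicate check and no p-value. Each ratio is LKO over control with a 95% exact (Clopper-Pearson) interval that covers counting error only. Rora itself had 3677 counts in the library labelled LKO and 3701 in the control library, which is 24.1 CPM against 33.4 CPM, or 1.38-fold lower (interval 1.32 to 1.45). A total over the gene can include exons outside the floxed part, so it checks the label only in part, and directions below are those of the library labelled LKO. Hepatocyte markers were abundant in both libraries, with Alb at 91007 CPM in the library labelled LKO and 117952 CPM in the control library. Of 6 B and T cell markers, 0 reached the filter.

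Most mitochondrial ribosomal protein genes were modestly lower in the library labelled LKO. Their median log2 ratio was −0.38, or 1.30-fold lower, where the median of all 11137 measured genes was −0.003. A gene was called measured when its 2 libraries averaged 1 CPM or more and held 20 or more reads together, and all 77 members passed. Of these, 67 had a ratio below 1, or 87.0%, against a background of 50.3% of measured genes. The interval lay wholly below 1 for 59 members, wholly above 1 for 5, and held 1 for 13. The same split over all measured genes is not given here, so these counts by themselves do not set the members apart. At a threshold of 1.5-fold with an interval that excluded 1, 16 members were lower, or 20.8%, where 9.76% of measured genes were. None of the 77 was 1.5-fold higher, where 10.5% of measured genes were. With a trend over longest-transcript length and GC content removed, 6 members, or 7.79%, were 1.5-fold lower, close to the background of 8.04% on that scale. The interquartile range of the members was −0.55 to −0.16, and that of all measured genes was −0.28 to 0.29.

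The summed level was lower as well. The members together stood at 1381 CPM in the library labelled LKO and 1683 CPM in the control library, 1.22-fold lower. As raw counts, however, they held 0.160% of all reads in the library labelled LKO and 0.145% in the control library. Of the 77, 52 had more raw reads in the library labelled LKO, and the same share over all genes is not given here. The difference lies in the scaling. With total-count scaling every log2 ratio is 0.42 higher, the median of the members is 0.04 and the median of all genes is 0.42. On that scale 2 members were 1.5-fold lower and 3 higher, against backgrounds of 2.53% and 34.6% of measured genes. The distance between the members and the bulk of genes was the same on both scales, at −0.37 with TMM and −0.38 with total counts. Values below are therefore positions relative to the bulk of genes. In bulk tissue, fewer cells of a type and less RNA per cell cannot be told apart, and the 7 hepatocyte markers were all below 1, with a median log2 ratio of −0.36 and a sum of 130254 CPM in LKO and 175676 CPM in control. The part of hepatocyte RNA in the members' ratios was not tested.

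**Figure D1:**
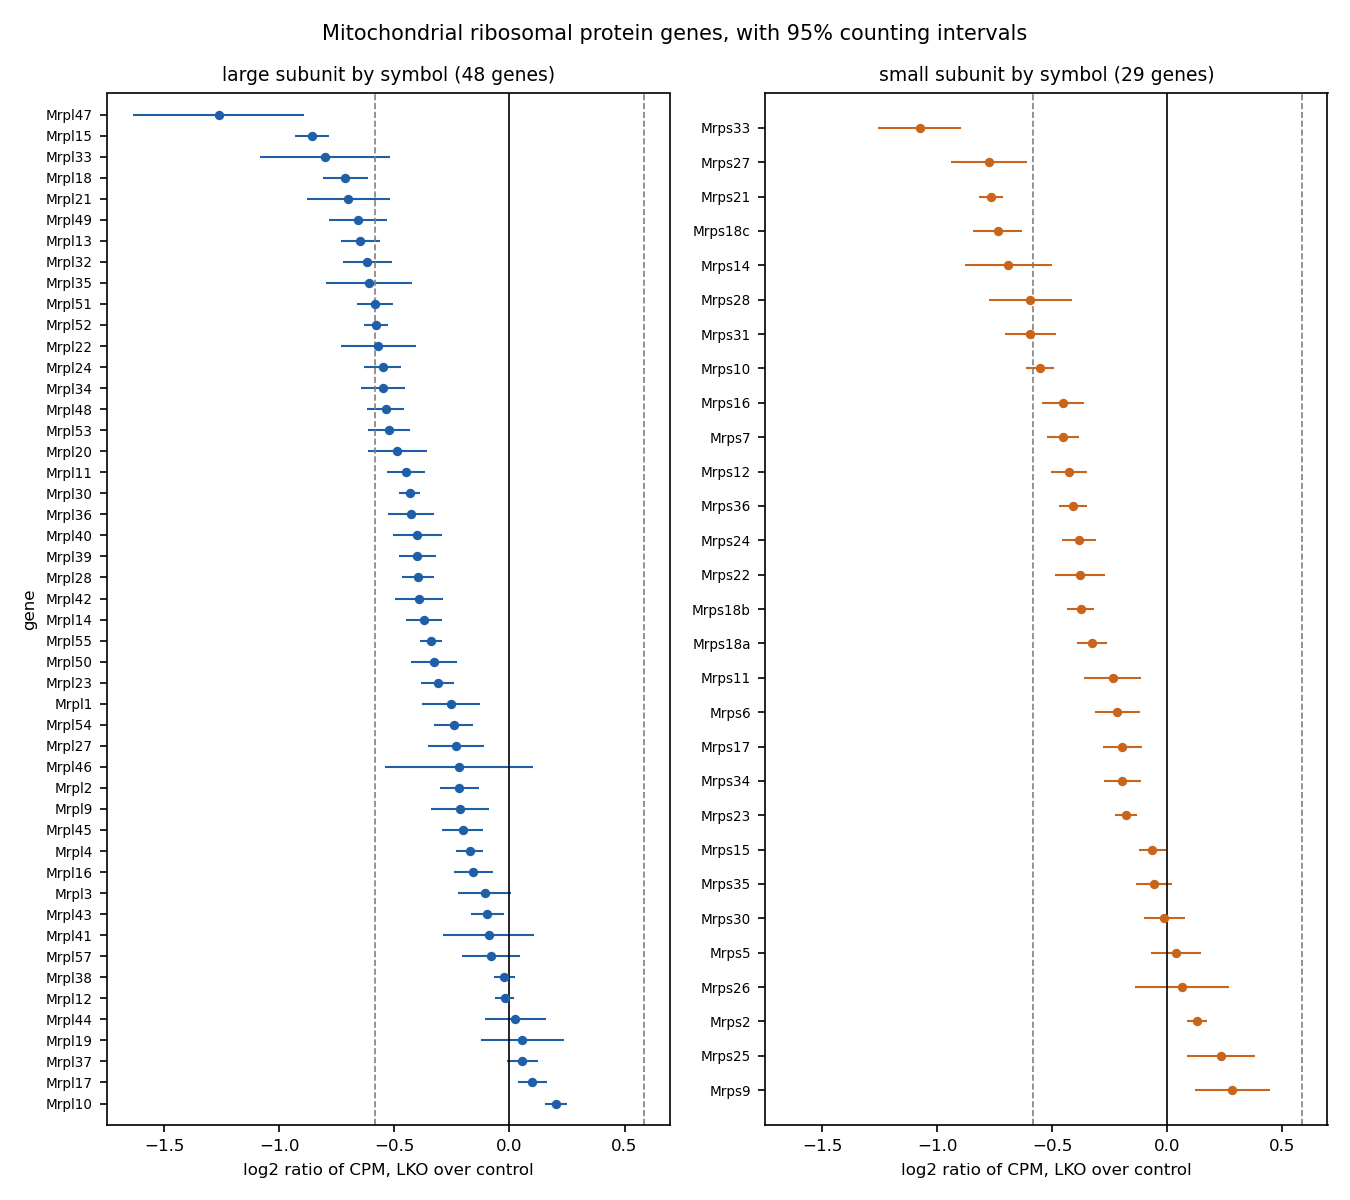
Log2 ratio of CPM, LKO over control, for each of the 48 large subunit and 29 small subunit genes, sorted within each panel. Points are single ratios, bars are 95% counting intervals, the solid line marks equal levels and dashed lines mark 1.5-fold. The ratios run from −1.26 for Mrpl47 to 0.28 for Mrps9, and no point reaches the upper dashed line.

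The order of the members by level was nearly the same in both libraries. Across the 77 genes, log2 CPM in the library labelled LKO and in the control library had a Pearson correlation of 0.98 and a Spearman correlation of 0.98, a description across genes that share the same 2 libraries. Member counts ran from 97 to 10536 in the library labelled LKO, with a median of 2120, and from 150 to 7773 in the control library, with a median of 1933. The intervals reached a factor of 1.06 from the ratio at the median and 1.29 at most, so the lowest genes are the least precise. Levels are compared between genes only per length, as CPM per kilobase of the longest annotated transcript. Members were ordered by the mean of both libraries. On this scale Mrps21 was first, at 69.8 in the library labelled LKO and 119 in the control library. Mrpl55 followed at 52.3 in LKO and 66.2 in control, then Mrpl52 at 43.2 in LKO and 64.6 in control. Mrpl12 stood at 52.5 in LKO and 53.3 in control, Mrps36 at 42.3 in LKO and 56.2 in control, and Mrpl38 at 44.6 in LKO and 45.3 in control. Mrps21 led in both libraries, and the order of the next 5 differed between them. The lowest by the mean of both libraries were Mrpl47, at 0.189 in LKO and 0.453 in control, Mrpl33, at 0.450 in LKO and 0.783 in control, Mrps26, at 0.745 in LKO and 0.713 in control, and Mrpl19, at 0.804 in LKO and 0.774 in control. In the library labelled LKO, Mrpl35 was below Mrpl19, at 0.793, and in the control library Mrps26 and Mrpl19 were below Mrpl33. With transcripts that GENCODE pairs with a curated RefSeq mRNA, Mrpl52 was first and Mrpl33 moved from rank 76 to rank 63, since annotated lengths of the same gene differ widely.

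**Figure D2:**
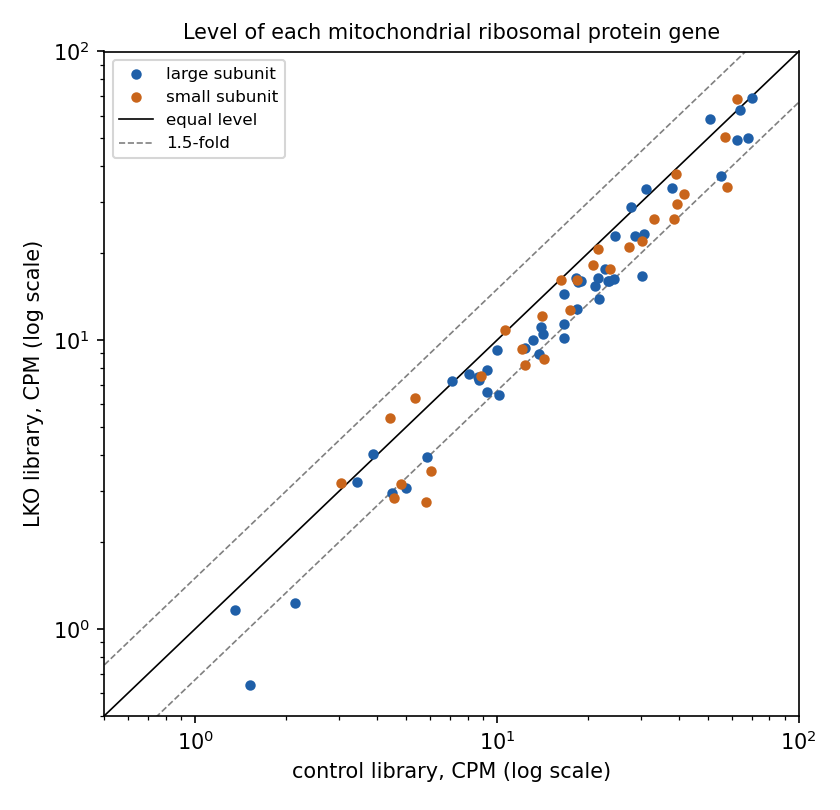
CPM of each member in the library labelled LKO (vertical, log scale) against the control library (horizontal, log scale), coloured by subunit. The solid line marks equal levels and dashed lines 1.5-fold. Most points lie between the solid and the lower dashed line across the whole range, from 0.636 CPM for Mrpl47 to 69.1 CPM for Mrpl12 in the library labelled LKO.

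Promoter windows were compared because the members leaned the same way. RefSeq windows of 300 bases (250 before to 50 after a gene's start, GRCm38.p6) were found for 68 of the 77 genes, 74 windows in all. NRF1 and GABP, an ETS family factor, are known as activators of nuclear genes for mitochondrial proteins. The NRF1 core word GCATGCGC was found on either strand in 8 of 74 windows, or 10.8%, against 2.71% of all 32851 windows and 5.04% of the windows of other measured genes. The ETS word CCGGAAG was found in 25 windows, or 33.8%, against 8.86% of all windows and 17.0% of those of other measured genes. The windows of cytosolic ribosomal protein genes held the ETS word at 36.1% and the NRF1 word at 4.17%. TAGGTCA, the core of the element that ROR receptors bind, was found in 1 window, that of Mrpl53, or 1.35%, against 2.61% of all windows. Each word was searched by itself, so matches of different words may share bases, and a match describes letters only, not binding. Both the NRF1 and the ETS word stood in the windows of Mrpl33, Mrpl22, Mrps18b and Mrpl17, or 5.41% of windows against 0.521% of all and 1.16% of those of other measured genes. The ratios of these 4 genes ran from −0.80 to 0.10. They are shown 5′ to 3′ with these words in capitals, between the windows of Mrpl47, the member with the lowest ratio, and Mrps9, the one with the highest, which hold neither. The windows are chr3:32736706-32737005, minus strand for Mrpl47, chr5:31613701-31614000, plus strand for Mrpl33, chr11:58171414-58171713, plus strand for Mrpl22, chr17:35916391-35916690, minus strand for Mrps18b, chr7:105811038-105811337, minus strand for Mrpl17, and chr1:42850983-42851282, plus strand for Mrps9.
Mrpl47: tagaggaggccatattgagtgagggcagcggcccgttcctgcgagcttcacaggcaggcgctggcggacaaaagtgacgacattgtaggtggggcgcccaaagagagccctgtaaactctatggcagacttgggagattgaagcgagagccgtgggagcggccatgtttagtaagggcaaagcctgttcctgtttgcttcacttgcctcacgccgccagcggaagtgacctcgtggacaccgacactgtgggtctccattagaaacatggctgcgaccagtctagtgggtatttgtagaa
Mrpl33: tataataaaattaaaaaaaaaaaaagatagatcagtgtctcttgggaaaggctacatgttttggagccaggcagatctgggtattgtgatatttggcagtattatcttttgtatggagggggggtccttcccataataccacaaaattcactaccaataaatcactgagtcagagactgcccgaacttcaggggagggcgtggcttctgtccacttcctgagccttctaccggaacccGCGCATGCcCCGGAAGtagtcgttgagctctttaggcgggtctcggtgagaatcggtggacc
Mrpl22: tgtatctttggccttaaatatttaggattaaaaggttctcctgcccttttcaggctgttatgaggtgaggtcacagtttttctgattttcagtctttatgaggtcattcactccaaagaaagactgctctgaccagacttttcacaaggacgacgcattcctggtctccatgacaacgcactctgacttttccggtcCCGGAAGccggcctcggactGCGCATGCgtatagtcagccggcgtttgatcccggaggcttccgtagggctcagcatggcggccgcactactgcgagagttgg
Mrps18b: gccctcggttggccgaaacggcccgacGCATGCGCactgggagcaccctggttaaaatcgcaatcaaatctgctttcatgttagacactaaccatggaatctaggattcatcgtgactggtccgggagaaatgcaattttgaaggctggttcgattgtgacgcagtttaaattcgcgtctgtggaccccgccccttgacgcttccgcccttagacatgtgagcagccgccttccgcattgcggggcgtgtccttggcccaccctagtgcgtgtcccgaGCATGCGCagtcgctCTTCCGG
Mrpl17: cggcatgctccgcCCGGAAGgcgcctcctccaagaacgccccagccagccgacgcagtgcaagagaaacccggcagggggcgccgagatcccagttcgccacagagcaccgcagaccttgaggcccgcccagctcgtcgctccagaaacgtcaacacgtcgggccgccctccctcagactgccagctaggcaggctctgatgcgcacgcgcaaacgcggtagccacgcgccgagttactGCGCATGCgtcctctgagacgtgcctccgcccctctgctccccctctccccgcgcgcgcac
Mrps9: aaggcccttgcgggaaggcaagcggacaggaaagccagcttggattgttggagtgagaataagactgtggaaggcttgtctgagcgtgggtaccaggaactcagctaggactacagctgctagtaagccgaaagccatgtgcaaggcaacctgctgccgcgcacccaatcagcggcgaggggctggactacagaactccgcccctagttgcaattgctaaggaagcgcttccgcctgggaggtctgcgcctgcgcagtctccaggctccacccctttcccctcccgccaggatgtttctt
Members with the NRF1 word had a median log2 ratio of −0.39 (8 genes), and members whose windows lack it −0.38 (60 genes). For the ETS word the medians were −0.52 (25 genes with it) and −0.33 (43 genes without it). The part of transcript length in this difference was not tested. Median GC content was 58.5% for the members' windows, 52.7% for all windows and 60.7% for those of other measured genes.

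Among large subunit genes, 9 of 48, or 18.8%, were at least 1.5-fold lower, where 9.76% of measured genes were. Their median log2 ratio was −0.38. The lowest member was Mrpl47, whose protein is the relative of bacterial L29 beside the tunnel exit, with 97 counts in the library labelled LKO and 169 in the control library. That is 0.636 CPM against 1.52 CPM, 2.40-fold lower (interval 1.86 to 3.11), and it is also the least precise of the called ratios. Mrpl47 (chr3:32725397-32737605 in mm10, minus strand) shares 1068 exon bases with the genes Ndufb5 and Actl6a of the plus strand. Mrpl15 (chr1:4773206-4785739, minus strand), the counterpart of bacterial L15, had 2543 counts in LKO and 3354 in control, 16.7 CPM against 30.3 CPM, 1.81-fold lower (interval 1.72 to 1.91). Its interval lies apart from that of Mrps18b, the median member. Mrpl33 had 1.23 CPM in LKO and 2.15 CPM in control, 1.74-fold lower (interval 1.43 to 2.12). Mrpl18, of the family that binds 5S rRNA in bacteria, had 10.2 CPM in LKO and 16.7 CPM in control, 1.64-fold lower (interval 1.53 to 1.76). The other large subunit genes past the threshold were Mrpl21 (3.06 CPM in LKO, 4.98 in control), Mrpl49 (6.43 in LKO, 10.1 in control), Mrpl13 (13.9 in LKO, 21.8 in control), Mrpl32 (8.96 in LKO, 13.7 in control) and Mrpl35 (2.95 in LKO, 4.50 in control). Mrpl32 is known in yeast and mouse as a protein that the inner membrane's AAA protease must trim before it joins the ribosome. Mrpl51 and Mrpl52, both at −0.58, fell just short of the threshold.

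By place in the large subunit, ratios varied within each group. The stalk, which recruits translation factors, and its base were represented by Mrpl10, Mrpl11, Mrpl12, Mrpl53 and Mrpl54. Of these genes 0 were 1.5-fold lower, where 9.76% of measured genes were, and their median was −0.24. Mrpl10 (chr11:97041560-97049213, plus strand) had the highest ratio of the large subunit genes, with 58.4 CPM in LKO and 50.8 CPM in control, a ratio of 1.15 (interval 1.11 to 1.19). Mrpl12, its stalk partner, which in human cells is also reported to bind the mitochondrial RNA polymerase, was nearly equal, with 69.1 CPM in LKO and 70.1 CPM in control. Mrpl11 and Mrpl53 of the same region stood at −0.45 and −0.52, so the stalk genes were not alike. At the tunnel exit, 8 genes had a median of −0.36. Mrpl17 was higher there, with 33.5 CPM in LKO and 31.2 CPM in control, a ratio of 1.07 (interval 1.03 to 1.12), while Mrpl22 and Mrpl24 stood at −0.57 and −0.55. Mrpl44, which has a fold like that of RNase III, had 7.25 CPM in LKO and 7.12 CPM in control, and Mrpl45, which helps to anchor the ribosome to the inner membrane, stood at −0.20. The 6 genes of the central protuberance had a median of −0.47, from −0.71 for Mrpl18 to −0.02 for Mrpl38, which had 62.9 CPM in LKO and 63.9 CPM in control. Further large subunit genes near equality were Mrpl37, with 29.0 CPM in LKO and 27.9 CPM in control, and Mrpl19, with 4.02 CPM in LKO and 3.87 CPM in control. Mrpl41, reported in human cells to promote apoptosis, had 3.23 CPM in LKO and 3.44 CPM in control, and its interval held 1. These groups by place were chosen with the values known, and their differences were not tested.

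Among small subunit genes, 7 of 29, or 24.1%, were at least 1.5-fold lower, where 9.76% of measured genes were. Their median was −0.38, the same position as the large subunit. Mrps33 (chr6:39801804-39810988, minus strand) was lowest, with 420 counts in the library labelled LKO and 644 in the control library, or 2.75 CPM against 5.81 CPM, 2.11-fold lower (interval 1.86 to 2.39). Mrpl47 and Mrps33 were the 2 members at least 2-fold lower, where 2.62% of measured genes were, and 0 were 2-fold higher, where 3.83% were. Mrps27, a protein with pentatricopeptide repeats, had 3.53 CPM in LKO and 6.04 CPM in control, 1.71-fold lower (interval 1.52 to 1.92). Mrps21 (chr3:95862634-95871519, minus strand), the counterpart of bacterial S21 and the first member by level per length, had 34.1 CPM in LKO and 57.9 CPM in control, 1.70-fold lower (interval 1.64 to 1.76). By mean CPM over both libraries Mrps21 ranked 9 among the members, and the next called member, Mrpl15, ranked 23. Of the 16 called members, 7 had a mean of at least 10 CPM, a level that 53 of the 77 members reached. The called members thus lay more often at lower levels. Mrps14 (2.83 CPM in LKO, 4.57 in control), Mrps28 (3.17 in LKO, 4.80 in control) and Mrps31 (8.20 in LKO, 12.4 in control) were also past the threshold. Mrps12, whose bacterial counterpart S12 lies at the decoding centre, had 17.6 CPM in LKO and 23.7 CPM in control, 1.34-fold lower (interval 1.27 to 1.42).

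At the other end, Mrps9 (chr1:42851233-42905683, plus strand) had the highest ratio of all members, with 821 counts in the library labelled LKO and 491 in the control library. This is 5.38 CPM against 4.43 CPM, a ratio of 1.22 (interval 1.09 to 1.36); the tail of its bacterial counterpart S9 touches the transfer RNA in the P site. Mrps25 had 6.30 CPM in LKO and 5.36 CPM in control, a ratio of 1.17 (interval 1.06 to 1.30), but 4590 of its exon bases are shared with the gene Nr2c2 of the opposite strand. Mrps2 had 68.3 CPM in LKO and 62.4 CPM in control, a ratio of 1.09 (interval 1.06 to 1.13). Mrps26 had 3.19 CPM in LKO and 3.05 CPM in control, with an interval that held 1. The intervals of these high members do not overlap those of the 16 low ones, which come from both subunits. Both sets were picked by their ratios, so this separation was largely fixed by the choice. How often intervals lie apart among all genes is not given here.

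Some Mrps symbols are not small subunit proteins by structure. Mrps30 and Mrps18a are found in the large subunit of mammalian mitochondrial ribosomes, and Mrps36 is now assigned to the oxoglutarate dehydrogenase complex. Mrps30 had 16.2 CPM in LKO and 16.3 CPM in control, and Mrps36 had 29.7 CPM in LKO and 39.4 CPM in control, 1.33-fold lower (interval 1.27 to 1.38). The Mrps18 genes are 3 paralogs of 1 bacterial protein. Mrps18c, whose protein occupies the place of bacterial S18, had 8.58 CPM in LKO and 14.3 CPM in control, 1.67-fold lower (interval 1.55 to 1.79). Mrps18a had 26.4 CPM in LKO and 33.1 CPM in control, a log2 ratio of −0.33, and Mrps18b had 32.1 CPM in LKO and 41.7 CPM in control, 1.30-fold lower. The interval of Mrps18c lay apart from those of both paralogs, which overlap each other. With Mrps30 and Mrps18a moved to the large subunit and Mrps36 left out, the medians were −0.36 for the large and −0.38 for the small subunit.

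Members were also split by the origin of the protein. The 44 members numbered up to L36 or S21, which by name have a bacterial counterpart, had a median of −0.39, with 10 of them 1.5-fold lower. The 33 members with higher numbers, most of them found in mitochondria alone, had a median of −0.34, with 6 lower. These are 22.7% and 18.2%, where 9.76% of measured genes were lower. The number is only a guide, since Mrpl47, Mrps24 and Mrps28 also have bacterial relatives. With these 3 moved, the medians were −0.40 and −0.29.

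Proteins of the same ribosome that carry other symbols had ratios in the range of the members. All 6 measured had ratios below 1, where 50.3% of measured genes had, and their median was −0.40. Past 1.5-fold was 1 of 6, or 16.7%, where 9.76% of measured genes were lower. Chchd1, of the small subunit, had 5.97 CPM in LKO and 9.53 CPM in control, 1.59-fold lower (interval 1.46 to 1.74). Ict1, a hydrolase of the large subunit that releases stalled chains, had 9.11 CPM in LKO and 13.0 CPM in control, and Aurkaip1, of the small subunit, had 24.7 CPM in LKO and 34.0 CPM in control. Dap3 and Gadd45gip1 were nearest to equality, at −0.15 and −0.14.

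Genes for the factors that work with the ribosome centred near the bulk of genes. Of 20 measured mitochondrial translation factor genes, 10 had ratios below 1, and the median was 0.03. By 1.5-fold, 1 was lower, or 5%, and 0 were higher, where 9.76% and 10.5% of measured genes were. Tufm, the elongation factor that delivers transfer RNAs, had 133 CPM in LKO and 128 CPM in control. Qrsl1 and Gatb, subunits of the enzyme that completes glutaminyl transfer RNA, had the highest ratios, at 1.44 (interval 1.17 to 1.77) and 1.27 (interval 1.18 to 1.38), while Mtif2, an initiation factor, stood at −0.27. The exception was Slirp, which stabilises mitochondrial mRNAs, with 2.22 CPM in LKO and 5.23 CPM in control, 2.35-fold lower (interval 2.05 to 2.70).

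Assembly factors of the mitochondrial ribosome had a median of 0.01 over 26 measured genes, with an interquartile range of −0.41 to 0.18. Its lower end lay below the members' median of −0.38. By 1.5-fold, 1 was higher, or 3.85%, and 0 were lower, where 10.5% and 9.76% of measured genes were. Trub2, a pseudouridine synthase, had 12.4 CPM in LKO and 7.20 CPM in control, a ratio of 1.73 (interval 1.59 to 1.88), and Mettl15, an rRNA methyltransferase, had a ratio of 1.39 (interval 1.11 to 1.74). Ngrn and Rpusd3, also rRNA-related factors, stood lowest, at −0.48 and −0.46, and Mpv17l2 led the list by mean level per length over both libraries, with 8.64 CPM per kilobase in LKO and 11.6 in control, although Rbfa was above it in the library labelled LKO, at 9.48. Genes for transcription and replication of mitochondrial DNA had a median of −0.05 over 11 measured genes. Of these 1 was lower, or 9.09%, near the 9.76% of measured genes. Ssbp1, which coats single-stranded mitochondrial DNA, had 5.29 CPM in LKO and 9.47 CPM in control, 1.79-fold lower (interval 1.63 to 1.97), and Top1mt, a topoisomerase, stood at −0.46. Polg, the replicative polymerase, and Lonp1, a matrix protease, were highest at 0.22 and 0.17.

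Regulators of mitochondrial biogenesis had a median of 0.17 and 7 of 9 above 1. Below 1 were 22.2%, where 50.3% of measured genes were. Myc, a growth-promoting transcription factor, was the one 1.5-fold higher gene, with 26.8 CPM in LKO and 12.4 CPM in control, a ratio of 2.16 (interval 2.03 to 2.30). This 1 gene is 11.1% of the list, where 10.5% of measured genes were higher. Ppargc1b, a coactivator, had a ratio of 1.26 (interval 1.11 to 1.42). Nrf1 had 15.2 CPM in LKO and 12.4 CPM in control, and Gabpa had 15.5 CPM in LKO and 13.3 CPM in control. Esrra and Pprc1, an orphan receptor and a coactivator, were lowest at −0.26 and −0.20.

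**Figure D3:**
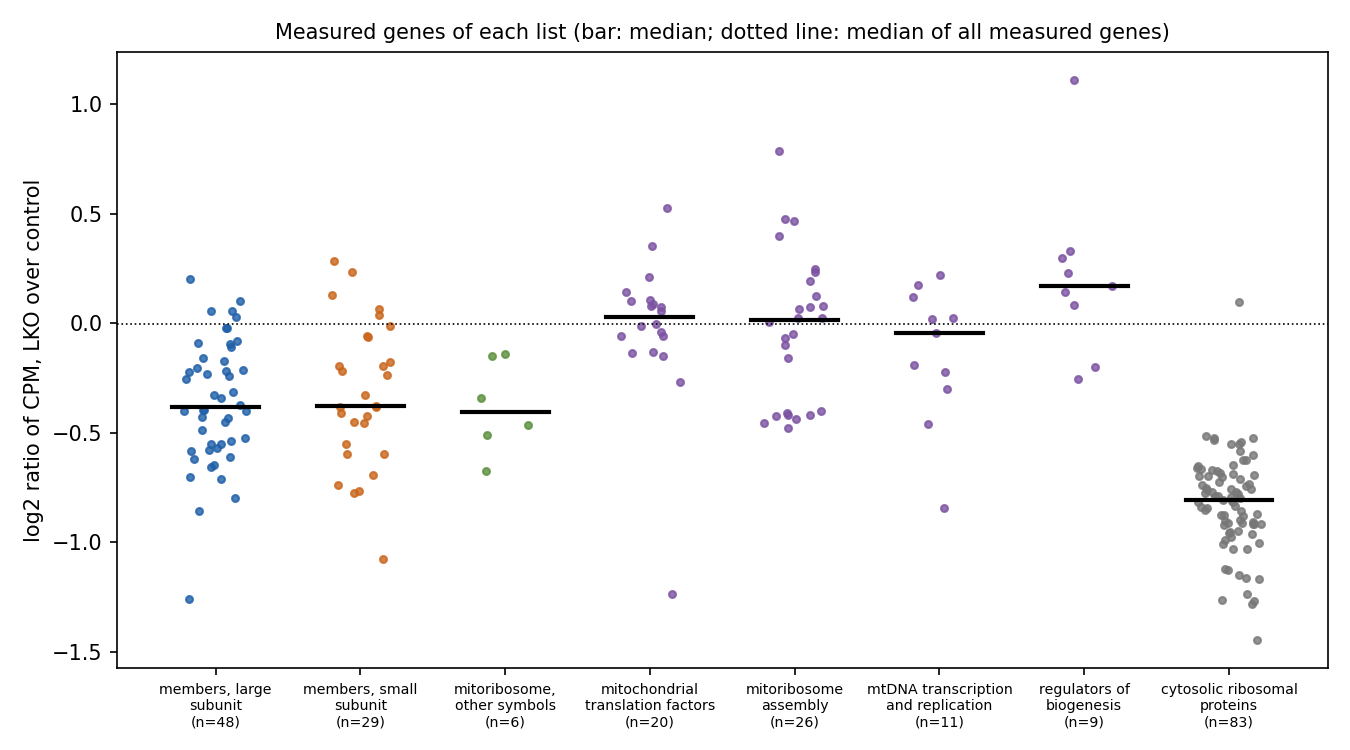
Log2 ratio of CPM, LKO over control, for each measured gene of the members by subunit, of 5 related mitochondrial lists and of the cytosolic ribosomal proteins. Each point is a gene, bars are medians and the dotted line is the median of all measured genes. Both subunits centre on −0.38, translation factors and assembly factors on the dotted line, and cytosolic ribosomal proteins on −0.81.

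Cytosolic ribosomal protein genes, given for context, were lower by more. Of 83 measured, 74 were at least 1.5-fold lower, or 89.2%, where 9.76% of measured genes were. Their median was −0.81, and their sum was 7557 CPM in the library labelled LKO and 12984 CPM in the control library. Rpl22l1 and Rps21 were lowest, at −1.45 and −1.28, Rpl15 stood at −0.52, and Rps4l was the one gene above 1, at 0.10. Rpl38, with the highest mean level per length over both libraries, had 197 CPM in LKO and 402 CPM in control, 2.04-fold lower (interval 2.01 to 2.07). Many of these genes have processed pseudogenes, so their counts can be split between copies.

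Transcript length moved with the ratio in these libraries. Members are short, with a median of 1226 bases for RefSeq-paired transcripts against 2995 bases over all measured genes. Over all measured genes with a paired transcript, the log2 ratio and log2 length had a Spearman correlation of 0.26 across 10976 genes, and over the 77 members it was also 0.26. Among transcripts of 501 to 1000 bases, 22 members had a median of −0.39 and 565 other genes, without cytosolic ribosomal proteins, a median of −0.31. Among those of 1001 to 1500 bases, 23 members had a median of −0.22 and 979 other genes a median of −0.16. These bins hold most of the members, and the distance from genes of like length is small there. It was larger over the interquartile range of member lengths, 918 to 2431 bases. There 39 members had a median of −0.33 and 3316 other protein-coding genes, without cytosolic ribosomal proteins, a median of −0.10. The shares 1.5-fold lower there were 17.9% and 11.4%. Above 1500 bases the 6 members of 1501 to 2000 bases had a median of −0.52 against −0.07 in other genes, the 7 of 2001 to 3000 bases −0.33 against −0.02, and the 8 of 3001 to 4000 bases −0.52 against 0.05. The 6 members of 4001 to 6000 bases had a median of −0.01 against 0.09, the 2 over 6000 bases 0.17 against 0.13, and the 3 of up to 500 bases −0.77 against −0.41. A trend over length and GC content was also fitted, with the length of the longest annotated transcript in place of the RefSeq-paired one. With this trend removed, the median of the members was −0.25 and that of the cytosolic ribosomal proteins was −0.65. On that scale 6 members in place of 16 were 1.5-fold lower. That is 7.79% of the members, against 8.04% of the 11050 measured genes with a length and GC value, so the share called lower was near the background. On that scale 0 members were 1.5-fold higher, where 9.46% of measured genes were. Mrpl47, Mrpl15, Mrps33, Mrps27, Mrpl33 and Mrpl13 were these 6, at −1.20 to −0.61, and Mrps9 was highest at 0.47. By the longest transcript Mrpl33 and Mrpl13 have 2741 and 6008 bases, and by the RefSeq-paired one 478 and 1223. Their place with a trend over the RefSeq-paired length was not tested.

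**Figure D4:**
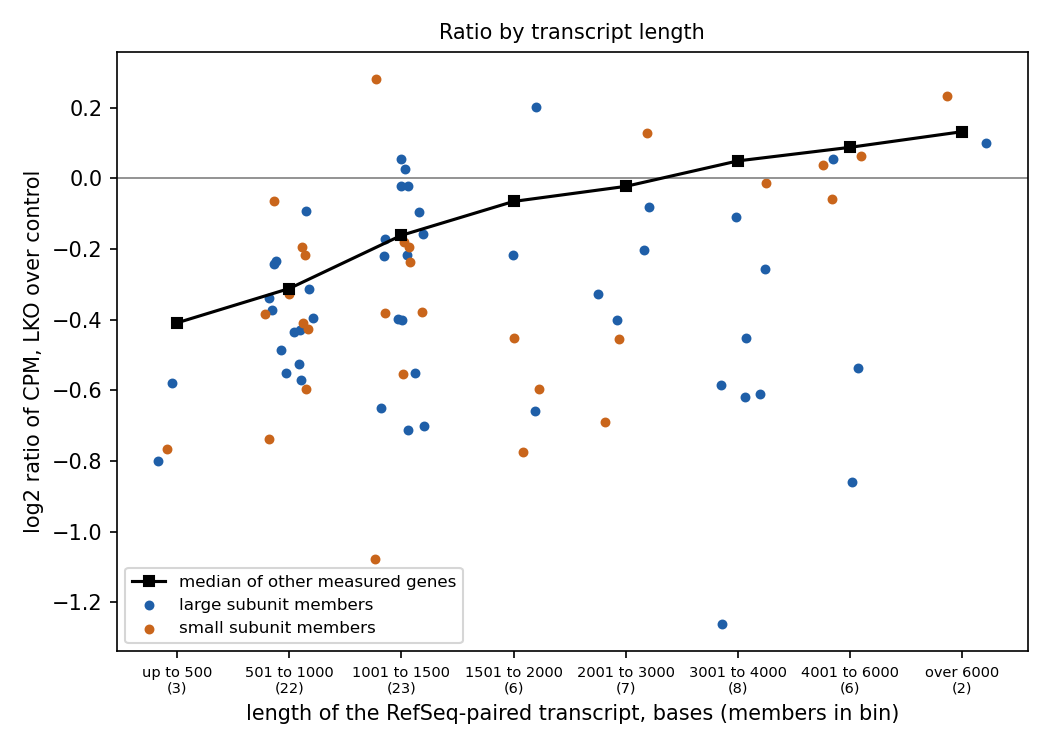
Log2 ratio of CPM, LKO over control, of the members (points, by subunit) in bins of transcript length, with the median of other measured genes, cytosolic ribosomal proteins left out (squares joined by a line). The number of members in each bin is under its label. The line runs from −0.41 in the shortest bin to 0.13 in the longest, and the members of the bins from 501 to 1500 bases lie around it.

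Position in the genome was read in 2 ways. Of the 77 members, 18, or 23.4%, have a protein-coding gene that starts within 1000 bases on the opposite strand and runs away from them, against 10.3% of 10556 other measured protein-coding genes. Of these partners 16 were measured, and they had a median of −0.19, against −0.35 for all 18 members with a partner, and 12 of the 16 members were below their partner. Mrps12 and Sars2, the mitochondrial seryl-tRNA synthetase gene, stood at −0.43 and 0.20. Mrpl49 and Fau, a cytosolic ribosomal protein gene, stood at −0.66 and −0.67, and Mrpl32 and the proteasome gene Psma2 at −0.62 and −0.28. Mrpl51 and Ncapd2, a condensin gene, went opposite ways, at −0.58 and 1.59, Ncapd2 with 285 counts in LKO and 69 in control. A shared promoter region thus did not go with a shared ratio in each pair. Exons of 32 members overlap those of another gene, and as strand use in the counting is not given, such reads cannot be assigned. The median was −0.38 for these 32 and −0.38 for the 45 without overlap, with 8 of each 1.5-fold lower.

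Markers of other liver cell types were at various positions. Of 6 measured Kupffer cell markers all 6 were 1.5-fold lower, where 9.76% of measured genes were. Their median was −0.87, and their summed level was 46.3 CPM in LKO and 83.2 CPM in control. Marco, at 0.380 CPM in LKO and 1.56 CPM in control, was below the filter. The 6 endothelial markers had a median of 0.23, the 6 stellate cell markers 0.43 and the 4 red blood cell genes 0.19. Their ranges were −0.34 to 0.50, −0.18 to 0.76 and −0.96 to 0.32, so each list held both directions. Below 1 were 2 endothelial markers, 1 stellate cell marker and 1 red blood cell gene, Alas2, which was 1.5-fold lower. Summed levels were 149 CPM in LKO and 132 CPM in control for endothelial markers, 268 CPM in LKO and 200 CPM in control for stellate cell markers, and 684 CPM in LKO and 696 CPM in control for red blood cell genes. Of 5 cholangiocyte markers 2 were measured, with a median of −0.31, near that of the members. Their summed level was 43.5 CPM in LKO and 55.6 CPM in control. The part of these cells in the members' ratios was not tested.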

How the data were processed

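RNA-seq of liver was read in 1 library labelled LKO and 1 control library. By the labels' protocols, Trizol was used to isolate RNA, of which 500 ng went into the LEXOGEN mRNA-Seq kit. The values are raw counts of reads for each gene symbol, as deposited by the authors, with no scaling applied. TopHat, edgeR and mm10 are named, without roles, per the submitters' processing notes. How reads were counted, with which annotation, by strand or not, and what became of reads with several alignments is not stated there. If a molecule was counted more than once, by PCR or by counting per transcript, the intervals are too narrow, and 26 of the 77 members have several curated RefSeq transcripts.

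TMM factors came from edgeR 4.0.16 (R 4.3.3), median-of-ratios factors from DESeq2 1.42.0, intervals from scipy 1.17.1 and lowess trends (fraction 0.3) from statsmodels 0.14.6. The call procedure was run on simulated Poisson counts, which hold counting error only. That run cannot show how calls behave with spread between mice. GENCODE M21 (GRCm38, the assembly of mm10) matched all 77 members and 24045 of 24421 symbols. Promoter windows are RefSeq's for GRCm38.p6.

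The members and lists were chosen with earlier results of these data known. Named genes are Rora, members past 1.5-fold, the 8 highest and 8 lowest ratios, the 6 highest and 4 lowest levels per length, members with roles beside the ribosome, the Mrps18 genes, and in each context list the 2 highest, the 2 lowest and the most abundant. Other genes were named after their values were seen. Alternatives changed the scaling, added counts, filter, fold threshold, interval, length and GC trend, the members kept and the length used. Subunit by structure, origin by homology and the RefSeq-paired length were chosen after seeing the data.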

Additional observations from a re-analysis of the deposited data

How the results depend on the processing

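No paired analysis was possible because each genotype has 1 library, and for the same reason no replicate could be left out. Depth limits the low members, and Mrpl47 has the widest interval. With total-count scaling the medians were 0.042 for the members, 0.036 for the large and 0.042 for the small subunit, 0.033 for members with a bacterial counterpart, 0.080 for those specific to mitochondria, 0.016 for ribosome proteins with other symbols, −0.39 for cytosolic ribosomal proteins, 0.45 for translation factors, 0.43 for assembly, 0.37 for mitochondrial DNA genes and 0.59 for regulators; 2 members were lower and 3 higher. Every gene moves by the same amount under another scaling, and the sign turned for the member lists, the proteins with other symbols and the mitochondrial DNA genes but not for the other lists. The distance of the members from all genes was −0.37 to −0.38 under each scaling run. With totals that leave out the 20 most abundant genes, the median of all genes moved by 0.12 and the same medians were −0.26 (members), −0.26 (large), −0.26 (small), −0.27 (bacterial counterpart), −0.22 (specific), −0.28 (other symbols), −0.69 (cytosolic) and 0.15 (translation factors), with 8 members lower. With a length and GC trend removed they were −0.25 (members), −0.25 (large), −0.24 (small), −0.25 (bacterial counterpart), −0.17 (specific), −0.27 (other symbols) and −0.65 (cytosolic), the distance of the members from all genes was −0.24, and 6 members were lower, a share near that of all genes. With 1 curated transcript the small subunit stood at −0.21 and specific members at −0.22. At a mean of at least 10 CPM, which kept 53 of 77 members, down to Mrps31 by mean CPM, 7 members were lower in place of 16. The share of all genes that were lower at this filter is not given here. The mitochondrial DNA genes stood at 0.17 with this filter. Without overlapping exons 8 of 45 members were lower, or 17.8%. With a threshold of 20% lower, 43 members were called, against 22.6% of measured genes, and with 2-fold, 2 members, against 2.62%. Added counts, median-of-ratios and upper-quartile scaling, no filter and counts divided by 4 before the interval kept the member counts at 16 to 18 lower and 0 higher. For single genes, 376 of the values under alternatives stayed within the interval of their main value and 73 did not. The fold thresholds, filters, member choices and the divisor of 4 cannot change a gene's ratio, so their part of the 376 was fixed beforehand. Total-count scaling moved 35 values and kept 0, and totals without the 20 most abundant genes moved 20 and kept 15. Removing the length and GC trend moved 18 and kept 17. Median-of-ratios scaling, upper-quartile scaling and added counts moved 0.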
